A study of Mus musculus with 8 samples.

Results

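The cytosolic ribosome of the mouse small intestine is described here through the genes for its proteins. Members were chosen by name alone: every gene whose symbol is Rpl or Rps followed by digits, with an a, l or x suffix where it has one, together with Rplp0, Rplp1, Rplp2 and Rpsa. The S6 kinase genes (Rps6k), pseudogenes and mitochondrial ribosomal protein genes were left out. A RefSeq gene table holds 82 such genes, and 80 of them had a probe on the array, 167 probes among 39429 in all. Of these 80 genes, 78 passed the filter on dim probes, 48 of the large and 30 of the small subunit, among 21302 genes tested. The muscle-type gene Rpl3l and the testis-type gene Rpl10l did not pass.

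The mice were of the strain C57BL/6J Min/+, which carries a mutant copy of the tumour suppressor gene Apc and develops intestinal adenomas, and total RNA was taken from their small intestine. All groups share this genotype, and the feeding experiment is labelled as lasting 18 months, with no age given. There were 4 groups of 2 Cy3 arrays: males and females on unmodified AIN-93G, a semisynthetic control diet, and males and females on a Western-type modification of it. The Western-type diet was high in fat and low in fibre, vitamin D, calcium and folate, and milk supplied 66.4% of its fat, with plant oils (rapeseed, sunflower) supplying 33.6%. RNA of 1 to 3 mice went onto each array, and nothing says that the 2 arrays of a group came from different mice. The spread behind each p-value is therefore that between arrays, which may be technical.

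Ribosomal proteins fold onto ribosomal RNA to form the small subunit, which reads the mRNA, and the large subunit, which joins amino acids. Their mRNAs are abundant in dividing cells such as those of the intestinal crypt. Most of them begin with a run of pyrimidines, the terminal oligopyrimidine tract, through which the mTOR kinase controls how strongly they are translated. The series title names mTor signalling. An array measures the amount of these mRNAs and not their translation.

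RefSeq start-site windows, of 250 bases before and 50 bases after the annotated start, were at hand for 60 of the 80 genes (72 windows, build GRCm38.p6). The letters CTTTCC, a pyrimidine run searched on both strands, occurred in 51.4% of these windows and in 26.6% of all 32851 windows. Within 35 bases before and 30 bases after the start, on the gene's own strand, the shares were 19.4% and 3.1%. The letters CCGGAAG, a core of ETS factor sites, occurred in 36.1% of the members' windows against 8.86% of all. AAGATGG, a core bound by the factor YY1, occurred in 15.3% against 6.34%. A match is only a match of letters.

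The stretches below are from genes that the results turn on. Each runs from 35 bases before the start to 25 bases into the transcript, with any of the 3 searched motifs in capitals. Rps27 carries CTTTCC beside the start, Rps10 and Rpl38 carry both CCGGAAG and CTTTCC, Rps21 carries CCGGAAG at the first of its annotated starts, and Rpl7a ends in AAGATGG. The stretches of Rpl14, Rps15, Rpl37a, Rpl36al and Rpl24, and that of the other Rps21 start, hold none of the 3 on the strand shown.
Rps27 (chr3:90213624-90213683, minus strand): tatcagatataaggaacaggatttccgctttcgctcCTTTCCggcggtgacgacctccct
Rps10 (chr17:27635220-27635279, minus strand): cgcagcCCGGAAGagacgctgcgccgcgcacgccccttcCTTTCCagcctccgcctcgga
Rpl38 (chr11:114668545-114668604, plus strand): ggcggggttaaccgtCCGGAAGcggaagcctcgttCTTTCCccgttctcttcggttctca
Rps21 (chr2:180257344-180257403, plus strand): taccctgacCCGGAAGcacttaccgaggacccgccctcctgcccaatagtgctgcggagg
Rpl7a (chr2:26910772-26910831, plus strand): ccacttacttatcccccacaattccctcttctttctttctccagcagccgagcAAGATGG
Rpl14 (chr9:120571482-120571541, plus strand): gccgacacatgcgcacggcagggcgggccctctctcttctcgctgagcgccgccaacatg
Rps15 (chr10:80292396-80292455, plus strand): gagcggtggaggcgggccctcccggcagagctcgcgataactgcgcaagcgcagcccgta
Rpl37a (chr1:72711225-72711284, plus strand): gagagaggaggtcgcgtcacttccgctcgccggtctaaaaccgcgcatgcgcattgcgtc
Rpl36al (chr12:69184043-69184102, minus strand): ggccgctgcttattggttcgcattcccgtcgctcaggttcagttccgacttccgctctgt
Rpl24 (chr16:55966240-55966299, plus strand): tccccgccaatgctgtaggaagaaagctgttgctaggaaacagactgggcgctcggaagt
Rps21, other start (chr2:180257414-180257473, plus strand): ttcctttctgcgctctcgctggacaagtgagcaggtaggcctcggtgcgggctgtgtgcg

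Values are log2 signals relative to the 75th percentile of each array, called log2 signal below, and a difference of 1 is a doubling. Slide 1 carried the first array of each group, slide 2 the second Western male array and slide 3 the remaining 3 arrays, which were scanned on another day. The share of probes above background was 75.6% on Control female 2 and at most 61.9% elsewhere, and arrays correlated at 0.942 to 0.990. The library labelled Control female 1 carried the Y-linked transcripts Ddx3y (-0.46) and Eif2s3y (1.90) at levels of the male arrays, and the name of its deposited file also points to the Western diet. It was kept under its label, so every control and female value rests partly on it. Smooth muscle markers stood 3.71 above their mean over arrays on Control male 1 (median of 10 genes; -1.68 to 0.14 elsewhere), and fat cell markers stood 4.64 above on Western female 2 (median of 6 genes; -1.52 to 0.73 elsewhere). All 10 enterocyte markers passed the filter, and their median deviation lay between -0.35 and 0.23. Red cell markers (4 genes measured) ran from -1.96 on the library labelled Control female 1 to 1.81 on Western male 1, with a median diet difference of 1.46 and 3 of 4 at an unadjusted p under 0.05 by limma (0 adjusted). Of 11 stem and cycling cell markers, 10 were lower on the Western diet by value (median -0.149), and 0 had an unadjusted p under 0.05 by limma. Of all genes tested, 59.5% were lower on the Western diet (median -0.057). At an unadjusted p under 0.05 by limma, 0.648% of all genes were higher and 3.63% lower. The part of either marker list in the values below was not tested. In such bulk RNA, fewer cells of a type and less RNA per cell cannot be told apart.

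The ribosomal protein mRNAs were steady across all 8 arrays. Of the 78 genes, 77 were above background on every array. The median range from the lowest to the highest array was 0.414 for the members and 0.966 for all genes tested. A range under 0.5 was found for 55 of 78 members (70.5%) and for 14.6% of all genes, and a range over 1 for 2 members (2.56%) and for 48.4% of all genes. The median within-group SD was 0.155 for members and 0.332 for all genes. Related lists came closer to the members. The median range was 0.564 for mitochondrial ribosomal proteins and 0.505 for elongation factors. A range over 1 was found for 2.6% and 0% of them, and one under 0.5 for 29.9% and 42.9%. On each array 60.5% to 79% of member probes were read from a scaled-up low-gain scan, against 3.3% to 4.9% of all probes. The part of brightness and scan in the steadiness was not tested. Rps13, a small subunit protein, had the smallest range (0.154), with every array between 6.27 and 6.42. Rps21 (1.084) and Rpl39l (2.915) had the largest. Rps13 was picked after its values were seen.

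**Figure D1:**
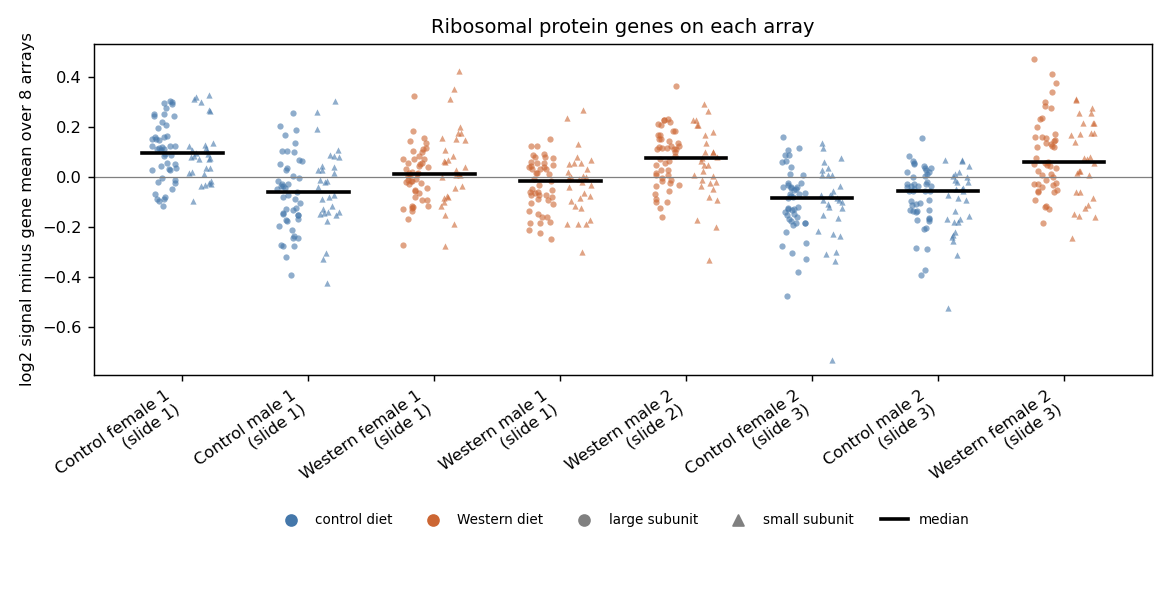
Each point is 1 of 77 ribosomal protein genes (Rpl39l left out) on 1 array, as log2 signal minus that gene's mean over the 8 arrays, with large subunit genes as circles, small subunit genes as triangles, control arrays in blue and Western arrays in orange. The black bars are medians; the highest is on the library labelled Control female 1 and the lowest on Control female 2, arrays that carry the same group label.

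Each array shifted the members by little. The median deviation of the 78 genes was lowest on Control female 2 (-0.080) and highest on the library labelled Control female 1 (0.101), arrays that carry the same group label. On the 4 Western arrays it ran from -0.019 on Western male 1 to 0.079 on Western male 2. Western female 2 was the highest array for 27 of 78 members (34.6%), against 11.1% of all genes. Control female 2 was the lowest for 23 (29.5%), against 9.19% of all genes, of which 32% had their highest value on that array.

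The diet comparison asked whether Western-diet arrays differed from control arrays, over both sexes. Ribosomal protein mRNAs were much alike on both diets: the median difference, Western minus control, was 0.053 in log2. Of the members, 72 of 78 lay within 0.2 of no difference, as did 11685 of all 21302 genes tested. By limma, 0 of 78 members passed an adjusted p of 0.05 (smallest 0.995), against 0% of all genes. At an unadjusted p under 0.05 the count was also 0, against 0.648% of all genes higher and 3.63% lower. A small difference in the higher direction was common: 65 of 78 members (83.3%) lay above 0, against 40.5% of all genes, and 13 lay below, against 59.5%. The median of all genes was -0.057. When arrays were scaled to their medians, 78 of 78 members lay above 0, while the median of all genes moved from -0.057 to 0.341; the members' median stood 0.110 above that of all genes in the first scaling and 0.111 in the second, and 0.008 above it after quantile normalization. The median was 0.110 without the library labelled Control female 1 and 0.014 without Control female 2.

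The intervals show what these arrays could resolve. For 70 of 78 members the 95% interval of the diet difference lay wholly within a 1.5-fold change either way, and for 76 within 2-fold. The median standard error was 0.154. Differences in single genes ran from -0.135 (Rps26) to 0.412 (Rps21).

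**Figure D2:**
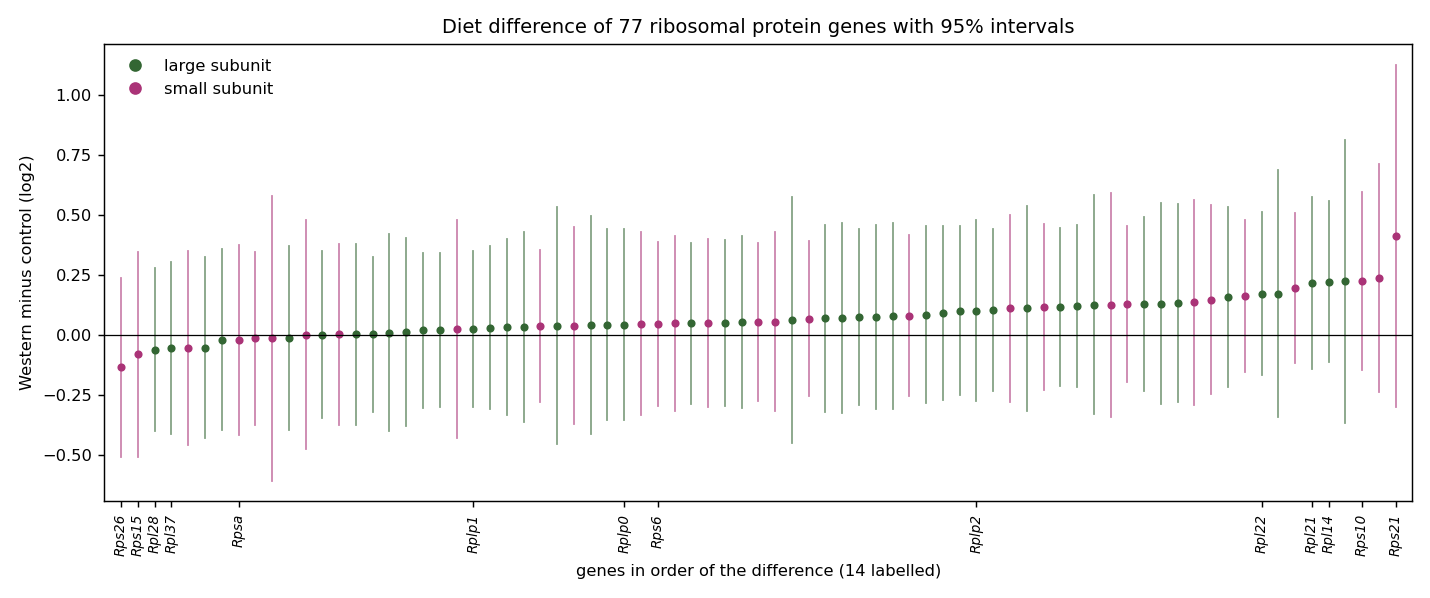
The diet difference (Western minus control, log2) of 77 ribosomal protein genes is drawn with its 95% interval from the limma fit, ordered by size, with names under 14 genes of the text, large subunit in green and small subunit in purple; Rpl39l, with an interval from -1.63 to 1.40, is left out. All intervals cross 0, and most points lie a little above it.

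Values by array are given below in the order male 1, male 2, female 1, female 2, and the control value for female 1 is always from the library labelled Control female 1. Rpl14, a large subunit protein, had the smallest p among members. Its log2 signals were 7.83, 7.65, 7.81 and 7.70 on the control diet and 8.01, 7.91, 8.04 and 7.91 on the Western diet. All 4 Western arrays lay above all 4 control arrays, as they did for 2 of 78 members in all, while 0 members had all Western arrays lower; 0.864% and 2.29% of all genes were so placed. The means were 7.75 ± 0.09 and 7.97 ± 0.07 (SD, n = 4), a 1.17-fold difference (log2 0.22 ± 0.14 SE, limma adjusted p = 0.995). Within slide 1 it was 0.18 in males and 0.23 in females, and within slide 3 it was 0.21 in females. Each of these is 1 array minus 1 array, and the slide 1 value in females uses the library labelled Control female 1. The second Rpl14 probe gave 0.06.

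Rps10 lies in the head of the small subunit near the mRNA entry. It measured 8.04, 8.17, 8.43 and 8.27 on the control diet and 8.30, 8.51, 8.65 and 8.35 on the Western diet. The library labelled Control female 1 was the only control array that reached into the Western values. The difference was 0.23 ± 0.15 SE (limma adjusted p = 0.995). Rpl21, a large subunit protein, had -1.73, -1.85, -1.79 and -1.82 on the control diet against -1.65, -1.82, -1.59 and -1.28, so that Western female 2 stood highest. The diet difference was 0.22 on this probe and 0.02 on the other, which gave -0.19 in males and 0.22 in females.

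Members below 0 were few. Rps26, a small subunit protein at the mRNA exit channel, measured 5.29, 5.11, 5.20 and 5.06 on the control diet and 5.10, 5.01, 4.82 and 5.17 on the Western diet. Its lowest array was Western female 1, and the diets overlapped. The difference was -0.13 ± 0.15 SE (limma adjusted p = 0.995). For Rps15, Rpl28 and Rpl37 it was -0.08, -0.06 and -0.05 with standard errors of 0.17, 0.14 and 0.15. With arrays scaled to their medians these 4 differences lay above 0, as did those of all 78 members, while the median of all genes moved from -0.057 to 0.341.

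The large and small subunits were alike. Their median diet differences were 0.057 and 0.052, with 42 of 48 and 23 of 30 genes above 0. Where a gene had several probes above background (50 genes), the probes gave the same sign in 31 and opposite signs in 19. The median gap between probes of a gene was 0.098. Over all 160 member probes above background on every array, the median was 0.056.

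Ribosomal protein genes have many processed pseudogenes, 318 of them in the RefSeq table for 62 members, with 24 for Rpl31 alone. The probes' sequences were not used here, and a probe may read transcripts of a near-identical copy.

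The P stalk, which recruits translation factors, is built from Rplp0, Rplp1 and Rplp2. Rplp0 measured 8.05, 8.29, 8.59 and 8.15 on the control diet and 8.42, 8.30, 8.27 and 8.27 on the Western diet. Rplp1 measured 6.61, 6.71, 6.82 and 6.62 against 6.65, 6.69, 6.76 and 6.76. Rplp2 measured 7.82, 8.04, 8.44 and 8.06 against 8.23, 8.29, 8.15 and 8.09. In all 3 genes the library labelled Control female 1 was the highest of the 8 arrays and Control male 1 the lowest. The diet differences were 0.04 ± 0.16, 0.03 ± 0.13 and 0.10 ± 0.15 SE.

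Rps6, the small subunit protein that S6 kinase phosphorylates downstream of mTOR, measured 6.81, 6.79, 6.76 and 6.69 on the control diet and 6.78, 6.75, 6.71 and 7.002 on the Western diet. Only Western female 2 stood apart, and the difference was 0.05 ± 0.14 SE, with an interval from -0.30 to 0.39. Rpsa, which also serves as a laminin receptor precursor, measured 7.74, 7.96, 8.005 and 7.90 against 7.70, 8.10, 7.95 and 7.77, a difference of -0.02 ± 0.16 SE.

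Several members have a paralog with a narrower or regulated expression. Rpl22l1, the paralog of Rpl22 and outside the symbol rule, measured 4.93, 4.84, 4.89 and 5.02 on the control diet and 5.15, 5.32, 5.23 and 5.24 on the Western diet. All 4 Western arrays lay above all 4 control arrays, as they did for 0.864% of all genes, with 2.29% the other way round. Among 6 genes outside the symbol rule, 1 was so placed. The difference was 1.25-fold (log2 0.32 ± 0.13 SE, limma unadjusted p = 0.0558, adjusted p = 0.995), with 0.35 in males and 0.28 in females. Within slide 1 it was 0.22 in males and 0.34 in females, the latter against the library labelled Control female 1. Within slide 3 it was 0.22 in females. Over 18 other settings the adjusted p by limma was at least 0.572. With normexp background the difference was 0.372 (limma unadjusted p = 0.0264, adjusted p = 0.79). It was 0.716 with arrays scaled to their medians, which moved the median of all genes to 0.341, and 0.274 to 0.372 in the other 17.

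Rpl22 itself, a large subunit protein that binds the Rpl22l1 transcript, measured 6.48, 6.62, 6.84 and 6.73 on the control diet and 6.69, 6.92, 6.87 and 6.88 on the Western diet, a difference of 0.17 ± 0.14 SE. The diets overlapped, through the library labelled Control female 1 and Control female 2. In the other pairs the diet differences were 0.14 ± 0.18 SE for Rps27 and 0.05 ± 0.14 for Rps27l, 0.03 ± 0.16 for Rpl36a and 0.17 ± 0.21 for Rpl36al, and 0.00 ± 0.14 for Rpl7 and 0.04 ± 0.15 for Rpl7l1. Rpl3, Rpl10 and Rps4x had 0.04 ± 0.20, -0.02 ± 0.15 and -0.01 ± 0.15, and no Rps4l probe was among the members. Rpl39 had 0.08 ± 0.16. Its paralog Rpl39l was above background on 2 arrays only, Control female 2 (-4.63) and Western male 2 (-5.002), and ranged down to -7.55 on the others.

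Over the 6 ribosomal or ribosome-bound proteins outside the symbol rule the median range was 0.458, against 0.414 for the members. The median diet difference of the 6 was 0.045. The scaffold gene Rack1 had 0.14 ± 0.15 SE, Fau, which encodes a ribosomal protein fused to a ubiquitin-like part, had 0.05 ± 0.21, and Rps3a1 had 0.04 ± 0.20. Fau, whose fusion partner is Rps30, was lowest on Control male 1 (8.40) among values of 8.69 to 9.14.

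The members partly rose and fell together over the arrays. The same was not computed for other genes, so it is not read as particular to the members. Each of 77 genes (Rpl39l left out) was correlated with the mean of the others over the 8 arrays, as a description of arrays that share slides and scan days; the median Pearson r was 0.562, with 45 genes over 0.5 and 4 below 0. The first principal component carried 38.5% of their variance and the second 23.3%. On the first, Control female 2 (-1.35) and Control male 2 (-1.18), both on slide 3, lay opposite the library labelled Control female 1 (1.06). Western female 2, also on slide 3, lay at -0.14, near Control male 1 (0.03) and Western male 1 (0.13) of slide 1. On the second, Control male 1 (-1.35) and Western male 1 (-0.74), both on slide 1, lay apart from the other 6 arrays (0.17 to 0.65).

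Rps21, a small subunit protein needed for late processing of its ribosomal RNA, led the first component. It measured 5.61, 4.98, 5.82 and 4.77 on the control diet and 5.74, 5.79, 5.85 and 5.44 on the Western diet. The 3 lowest values were the 3 arrays of slide 3. The diet difference of 0.41 ± 0.29 SE was the largest among members (1.33-fold, limma adjusted p = 0.995). It was 0.24 with scan day as a block. Within slide 1 it was 0.13 in males and 0.03 in females, the latter against the library labelled Control female 1. Within slide 3 it was 0.67 in females. Without the library labelled Control female 1 it was 0.675 (limma unadjusted p = 0.0345, adjusted p = 0.293), and 0.149 without Control female 2.

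Rpl7a, a large subunit protein, was also lowest on the 3 arrays of slide 3. It measured 6.87, 6.40, 7.07 and 6.30 on the control diet against 6.89, 6.88, 7.10 and 6.66 on the Western diet. Its diet difference was 0.22 ± 0.24 SE, and 0.08 with scan day as a block. In all, 9 of 78 members had every slide 3 array below every other array (11.5%, against 4.42% of all genes) and 2 had every one above (all genes 3.85%). Besides these 2 genes, the 9 were Rpl36al, Rps12, Rpl4, Rps14, Rps29, Rpl24 and Rpl30, at -0.45 to -0.25, and Rpl10a lay on the other side. Slide 3 held 2 control arrays and 1 Western array, so this pattern enters the diet difference. Rps21, Rpl7a and the genes named for their place on slides 1 and 3 were picked with their values in view.

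**Figure D3:**
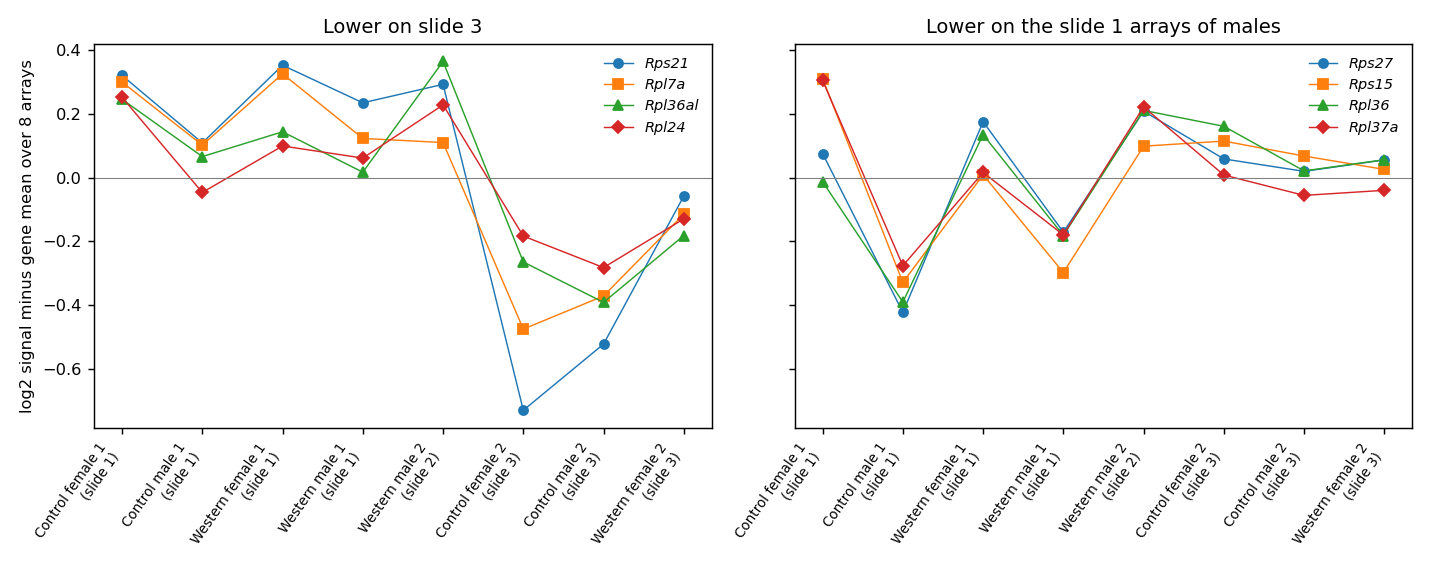
Log2 signal minus each gene's mean over the 8 arrays, on the y axis, is shown for 8 ribosomal protein genes, with the arrays ordered by slide. In the left panel Rps21, Rpl7a, Rpl36al and Rpl24 are low on the 3 arrays of slide 3, and in the right panel Rps27, Rps15, Rpl36 and Rpl37a are low on Control male 1 and Western male 1 of slide 1.

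The second component was led by other genes. Rps27 measured 7.25 and 7.505 on the first male arrays of the 2 diets, Control male 1 and Western male 1, and 7.70 to 7.89 on the other 6. For Rps15, a small subunit protein near the decoding site, the values were 4.71 and 4.74 against 5.05 to 5.35. Control male 1 and Western male 1 were the 2 lowest arrays for 12 of 78 members (15.4%, against 11.3% of all genes). That share is near the one over all genes, so this placement is not particular to the members. The 12 included Rps27, Rps15, Rpsa, Rpl8, Rpl10, Rpl10a, Rpl36, Rpl37, Rpl37a, Rpl38 and Rpl41. Control male 1 also carried the high smooth muscle signal, and the part of that in these values was not tested; Western male 1, at -0.39, did not.

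Within males, 62 of 78 members lay above 0 on the Western diet and 16 below, with a median of 0.068 (all genes 48.7% above, 51.3% below, median -0.009). By limma 0 members passed the adjusted threshold, against 0% of all genes, and 0 had an unadjusted p under 0.05, against 0.582% higher and 0.718% lower. The 2 Western male arrays lay above the 2 control male arrays for 24 members (30.8%) and below for 5 (6.41%), against 12.1% and 13.0% of all genes. Rplp2 had the smallest p, at 0.33 ± 0.22 SE (limma adjusted p = 1), followed by Rpl27 (0.28 ± 0.19), Rps10 (0.30 ± 0.22) and Rpl22 (0.25 ± 0.20). In the other direction were Rps26 (-0.14 ± 0.22), Rpl3 (-0.16 ± 0.28), Rps2 (-0.11 ± 0.23) and Rpl23a (-0.09 ± 0.21). Within slide 1 the median of the members was 0.018, with 44 of 78 above 0. For all genes it was -0.052, with 9239 of 21302 above 0. After cyclic loess normalization over all arrays the members' median was -0.023.

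Within females, 53 of 78 members lay above 0 and 25 below, with a median of 0.043 (all genes 36.8% above, 63.2% below, median -0.109). Again 0 members passed, against 0% of all genes, and 0 had an unadjusted p under 0.05, against 0.601% higher and 4.50% lower. The Western arrays were all above the control arrays for 9 members (11.5%) and all below for 4 (5.13%), against 9.59% and 21.8%. Rpl21 had the smallest p, at 0.37 ± 0.21 SE (limma adjusted p = 0.954), and its other probe gave 0.22. Rpl14 had 0.22 ± 0.19. Rps15, Rpl37 and Rpl37a had -0.20 ± 0.25, -0.15 ± 0.21 and -0.17 ± 0.24. The 2 slides disagreed in direction: the members' median was -0.097 within slide 1 (24 of 78 above 0) and 0.170 within slide 3 (62 of 78). For all genes it was -0.030 within slide 1 (9949 of 21302 above 0) and -0.221 within slide 3 (7511 of 21302). The slide 1 values are from Western female 1 minus the library labelled Control female 1. Without the library labelled Control female 1 the members' median was 0.141, and without Control female 2 it was -0.054.

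The diet difference in females minus that in males had a median of -0.015 over members and -0.136 over all genes. By limma 0 of 78 members passed the adjusted threshold, against 0% of all genes, and 0 had an unadjusted p under 0.05, against 0.460% higher and 1.16% lower. Rpl39l was above background only on Control female 2 and Western male 2, so no difference is given for it. Among the members above background on every array, Rplp2 had the smallest p (-0.46 ± 0.31 SE, limma adjusted p = 1), followed by Rpl27 (-0.32 ± 0.27) and Rpl37a (-0.36 ± 0.34), while Rpl21, Rpl3, Rpl23a and Rps7 had 0.31, 0.39, 0.24 and 0.26. All of those 4 were highest on Western female 2, the array with the high fat cell signal; the part of that signal in these values was not tested.

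The comparison of females with males, over both diets, rests on the library labelled Control female 1. The members' median was 0.036, female minus male, with 60 of 78 above 0, against 0.075 and 62.3% of all genes. By limma 0 passed the adjusted threshold, against 0% of all genes, and 0 had an unadjusted p under 0.05, against 2.66% higher and 1.19% lower. Rps15a (0.24 ± 0.15 SE, limma adjusted p = 0.906), Rps15 (0.23 ± 0.17), Rpl8 (0.19 ± 0.15) and Rps10 (0.17 ± 0.15) had the smallest p on one side, and Rpl30 (-0.14 ± 0.16), Rps12 (-0.10 ± 0.19), Rpl36a (-0.08 ± 0.16) and Rps24 (-0.06 ± 0.14) on the other. Rps18, chosen after its values were seen, was the 1 member with all female arrays above all male arrays (5.72 to 5.98 against 5.59 to 5.70), where 1.96% of all genes were so placed and 1.03% the other way round. On the other Rps18 probe the sexes overlapped (females 3.258 to 3.705, males 3.27 to 3.523). The members' median turned to -0.231 with arrays scaled to their medians, where that of all genes was -0.192, and to -0.042 after cyclic loess normalization, where it was -0.004.

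Genes of the wider translation machinery gave small medians as well. None of the lists held a gene past an adjusted p of 0.05 by limma for diet (0% of all genes). At an unadjusted p under 0.05 they held 1 in all, Rrp12 of the small subunit processing list, against 0.648% of all genes higher and 3.63% lower. Elongation factors had a median diet difference of -0.002 (3 of 7 above 0), with Eef1g at 0.21 ± 0.18 SE and Eif5a at -0.06 ± 0.18. Initiation factors had 0.033 (21 of 28 above 0). Among these the helicase gene Eif4a2 measured 4.42, 4.76, 5.01 and 4.999 on the control diet against 4.95, 5.17, 5.34 and 5.09, a difference of 0.34 ± 0.16 SE (limma adjusted p = 0.995), and Eif3a, a scaffold subunit, had 0.23 ± 0.15.

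Factors that build the ribosome in the nucleolus varied more between arrays than the ribosomal proteins, with median ranges of 0.661 and 0.687 for the small and large subunit lists. Their median diet differences were 0.023 (23 of 36 above 0) and 0.009 (21 of 38). The export factor Rrp12 was the gene with unadjusted p = 0.0371 (-0.93 ± 0.35 SE, limma adjusted p = 0.995). Its values were -3.84, -4.18, -3.60 and -2.09 on the control diet and -4.48, -4.62, -4.33 and -3.995 on the Western diet, with Control female 2 far above the rest. The nucleolar chaperone Npm1 had 0.31 ± 0.21, the large subunit assembly gene Rrs1 0.35 ± 0.17 and Rrp1b -0.52 ± 0.26.

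RNA polymerase I, which makes the precursor of the ribosomal RNA, had a list median of 0.078 (8 of 14 above 0). Its subunit gene Polr1c had 0.23 ± 0.14 SE and Cd3eap -0.32 ± 0.19. Regulators of ribosomal protein mRNA had 0.059 (12 of 17), with the RNA-binding Tial1 at 0.28 ± 0.15 and the transcription factor Yy1 at 0.24 ± 0.14. None of these differences passed.

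Mitochondrial ribosomal proteins, which build a separate ribosome inside the mitochondrion, served as a parallel family. Their median diet difference was 0.034 (53 of 77 above 0), with 0.120 in males and -0.052 in females, where the cytosolic members had 0.068 and 0.043. Mrps26 had -0.20 ± 0.15 SE and Mrpl23 0.21 ± 0.17. Between the sexes, in a comparison that rests partly on the library labelled Control female 1, all 77 lay above 0 with a median of 0.182 (all genes 62.3% and 0.075; cytosolic members 60 of 78 and 0.036). With arrays scaled to their medians 16 of the 77 lay above 0 and the median was -0.085, where that of all genes was -0.192. The difference between the families was not tested.

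**Figure D4:**
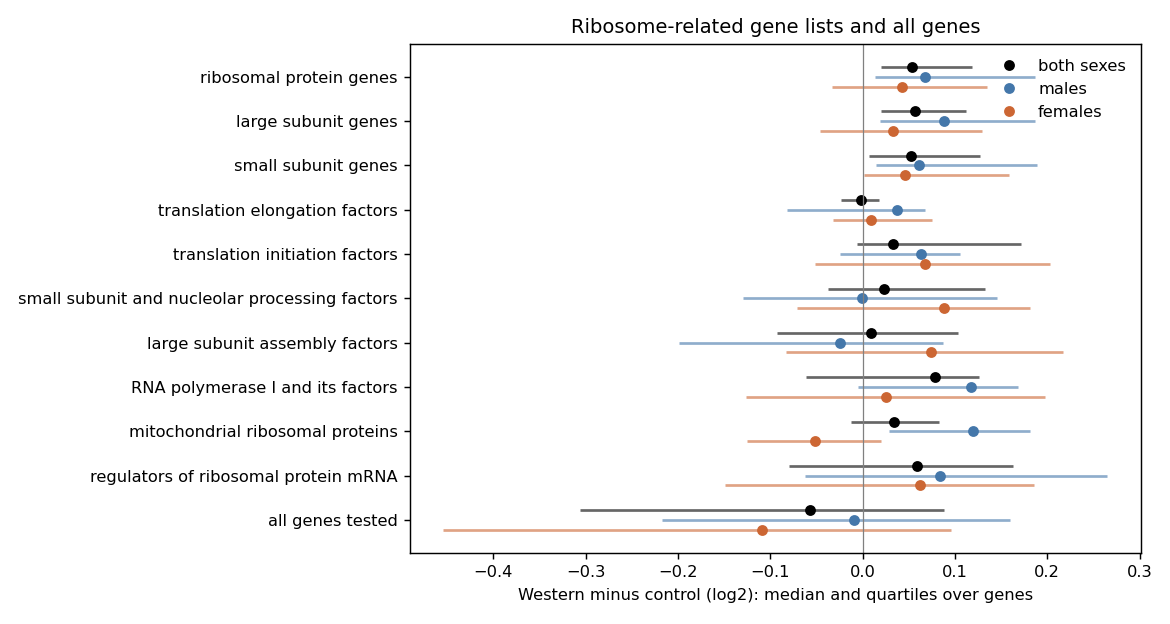
Median (point) and quartiles (line) over genes of the diet difference in log2 are drawn for the ribosomal protein genes, their subunits, related gene lists and all 21302 genes tested, for both sexes together (black), males (blue) and females (orange). The cytosolic ribosomal proteins have medians of 0.053, 0.068 and 0.043, and all genes of -0.057, -0.009 and -0.109, with wider quartiles.

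Single probes of Rps24 behaved differently from one another. Rps24 is a small subunit gene whose transcripts differ by small alternative exons near the end of the coding sequence, and each of its 3 probes is assigned to another RefSeq transcript. Probe C, the brightest and the one tested, measured 7.75, 7.85, 7.88 and 7.74 on the control diet against 7.85, 8.13, 7.89 and 7.80 on the Western diet. Probe A measured 3.76, 2.02, 2.90 and 1.87 on the control diet against 2.86, 2.78, 2.92 and 3.11. It was highest on Control male 1, lowest on Control female 2 and Control male 2, and spanned 1.893, against 0.382 for probe C and 0.364 for probe B. The diet difference was 0.28 for probe A, 0.12 for B and 0.12 for C. Control male 1 carried the smooth muscle markers. Slide 3 held both low arrays, but also Western female 2, whose 3.11 was exceeded only on Control male 1. The part of smooth muscle and of the slide in probe A was not tested. The 2 probes of Rps3, a small subunit protein at the mRNA entry, also parted: the dimmer one measured 0.60 and 0.70 on Control male 1 and Western male 1 and 1.49 to 1.82 on the other 6 arrays, while the tested one stayed between 5.13 and 5.58. Both genes were picked for this paragraph after their values were seen.

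**Figure D5:**
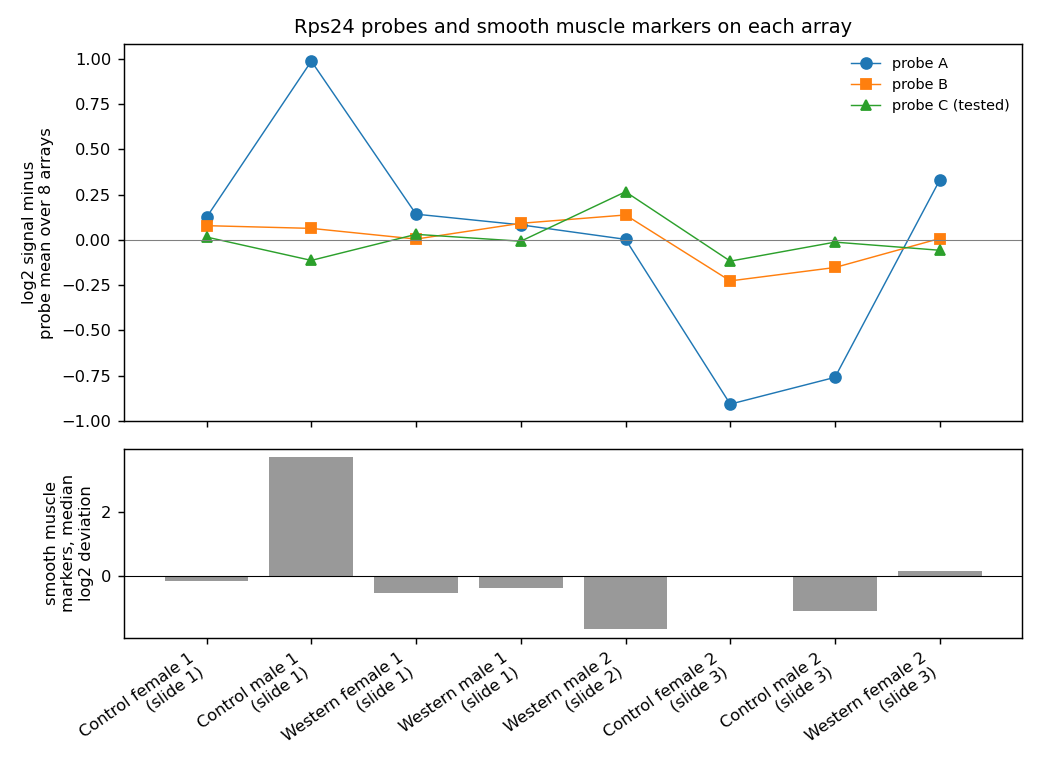
The upper panel gives log2 signal minus each probe's mean over the 8 arrays for the 3 probes of Rps24, and the lower panel the median log2 deviation of 10 smooth muscle markers on the same arrays, ordered by slide. Probe A spans 1.893 between its highest array, Control male 1, and its lowest, Control female 2, while probes B and C stay within 0.382, and the smooth muscle bar reaches 3.71 on Control male 1.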

How the data were processed

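Each deposited file holds the scanner output of 1 Agilent array (design 026655), made with Feature Extraction 10.7.3.1, as the headers state. Its processed signals, a linear intensity with background already subtracted, were used as deposited. The files record no scaling from array to array.

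Control spots (1377) and outlier-flagged spots were left out, spots of a probe were averaged, and log2 signals were set relative to the 75th percentile of each array. Probes were named through RefSeq (GRCm38.p6). Of 39429 probes, 26412 received a symbol. The headers name mm9, so probes have no coordinates here. A probe had to be above background on 2 or more arrays, and the brightest probe of a gene was tested.

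The 5 contrasts were fitted over 4 group means by limma (version 3.58.1, under R 4.3.3; tables were handled with data.table, version 1.17.8), with 4 residual and 2.01 prior degrees of freedom, with Benjamini-Hochberg adjustment over 21302 genes. The fit was tested on simulated data. The number of arrays limits the precision. No member spot was saturated, but 101 member probes were read on every array from the scanner's low-gain scan, scaled up by the software.

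Genes were named by these rules: the 4 members with the smallest p in each direction per contrast, the P stalk genes, Rpsa, Rps6, the paralog pairs, members not above background on every array, the 2 smallest p for diet in each related list, and the ribosomal proteins outside the symbol rule. Some genes that these rules name are not reported here. The members and lists were chosen with earlier results of these data known. Alternatives covered scaling, background correction, the filter on dim probes, the probe choice, blocks for scan day, slide and replicate number, and leaving out each array.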

Additional observations from a re-analysis of the deposited data

How the results depend on the processing

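Under 19 other settings, counts of members with an adjusted p under 0.05 by limma stayed at 0 in all 5 comparisons, and unadjusted counts reached at most 1 (limma). With arrays scaled to their medians the diet median of the members became 0.452, that in males 0.214 and in females 0.695, with 0.490 for their difference (1 member with unadjusted p under 0.05, Rpl39l, which was above background on 2 arrays only and is not read as a call) and -0.231 for sex; the medians of all genes moved alike (0.341, 0.137, 0.543, 0.370 and -0.192), and Rps26, Rps15, Rpl28 and Rpl37 turned to 0.264, 0.317, 0.336 and 0.344 for diet. Cyclic loess gave -0.023 in males, 0.138 for the difference and -0.042 for sex, and quantile normalization 0.085 for the difference. The causes were not tested. Relative to all genes, the members' diet median lay between 0.008 and 0.226 over 11 settings and between 0.042 and 0.183 with 1 array left out.

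Leaving out each array gave medians of 0.014 to 0.110 for diet, 0.034 to 0.148 in males, -0.054 to 0.141 in females, -0.142 to 0.059 for the difference and 0.006 to 0.107 for sex. Unadjusted counts ran from 0 to 1 for diet (Rps21) and from 0 to 1 for the difference (Rpl39l again, without Western female 1, and again not read as a call). Rps15 ran from -0.182 to 0.017 and Rpl37 from -0.138 to 0.028 for diet. A lone array was then assumed to vary like the other groups. The replicate block left the diet median at 0.053; same-numbered arrays correlated at -0.118 to 0.352, so the numbers were not taken to pair them. The normexp background used median spot signals. Restricting to probes never read from the low-gain scan, chosen after seeing the data, left 26 members with a diet median of 0.089.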
